A study of Drosophila melanogaster with 4 samples.

Results

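The glycolysis, glycogen, trehalose and pentose phosphate enzymes described here are 10 genes: Hex-A, Ald1, Tpi, Gapdh1, Pgk, Eno, Glyp, UGP, Treh and Taldo. They were chosen by symbol, as spots whose only gene symbol in the probe annotation is a listed enzyme, from 6775 genes that have a clone of their own on the array. Together they have 14 clones, of which 12 had a value on at least 3 of the 4 arrays, 7 of them on all 4. Every enzyme has at least 1 such clone. The other 2 clones, 1 of Ald1 and 1 of Tpi, had no value on any array.

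The tissue was the head of unmated wild-type Oregon-R males of Drosophila melanogaster, kept on food with sodium valproate (NaVP) or on normal food. NaVP is used against epilepsy and as a mood stabiliser, and is known to inhibit histone deacetylases. The treated flies were 10 to 11 days old when they received 0.33 mg/ml NaVP in their food for 3 days, in vials of 30 flies, and the control flies, of the same strain, age and sex, spent those days on normal food. There were 4 two-colour cDNA arrays, 1 per biological replicate, each hybridised with its own NaVP pool and its own normal food pool. Cy5 labelled the NaVP RNA of arrays 1 and 2. On arrays 3 and 4, called the swap arrays, NaVP RNA was in Cy3. RNA of whole heads mixes eye, brain, glia, muscle, fat body and antenna, so fewer cells of a type and less RNA per cell cannot be told apart. Of 8 photoreceptor markers, 3 (trpl, Arr1 and inaD) had a clone on at least 3 arrays. Of 5 neuron markers, 1 had a clone and that clone had no value.

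Glycolysis splits glucose into pyruvate and yields ATP and NADH. In insects the blood sugar is mainly trehalose, which trehalase cuts to glucose, and the reserve is glycogen, held largely in fat body and muscle. The pentose phosphate pathway branches from glucose 6-phosphate. Its oxidative steps make NADPH, which feeds reductive synthesis and defence against oxidants, and its non-oxidative steps, run by transketolase and transaldolase, return pentoses to glycolysis. In the fly brain, glia are known for taking up trehalose and passing glycolytic products to neurons.

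Each listed spot of an array has 1 deposited log ratio, treated as log2. Neither the base nor the direction of the ratio is stated. On arrays 1 and 2, Cy5 over Cy3 would be NaVP over normal food, and this direction was used throughout; were it reversed, "higher" and "lower" would be exchanged throughout. For the swap arrays 2 readings are possible. In the first, with the swap arrays turned, the values are taken as Cy5 over Cy3. The sign of arrays 3 and 4 is then changed. In the other, with the swap arrays as deposited, the values are taken as already NaVP over normal food on each array. The channel given first in the labels is Cy5 on each array, but no label states which reading holds. For a clone on 4 arrays the mean in 1 reading is the dye effect in the other. Adjacent spots of a clone were averaged and each array was set to a median of 0, so a ratio is relative to the typical clone of that array.

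Arrays 1 to 4 had values for 18.9%, 4.78%, 13.6% and 11.6% of 27648 spots, so array 2 is the thinnest, and their medians before centring were 1.01, 1.05, 0.54 and 0.24 on the log2 scale. Across clones, log ratios as deposited correlated at r = 0.55 between arrays 1 and 2 (548 clones) and at r = 0.39 between arrays 3 and 4 (935 clones). Between the dye orientations r ran from -0.14 to 0.34. Spots of 1 clone share an array and a hybridisation and are not replicates. The enzymes' paired spots differed by a median of 0.145 on the log2 scale over 43 pairs, from 0.005 to 0.552, and those of all tested clones by a median of 0.120. Signal levels behind the ratios are unknown here, and the number of arrays limits the precision.

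Transaldolase, encoded by Taldo (NCBI gene 37804), had the largest mean of the enzymes when the swap arrays are turned, a 1.42-fold difference toward NaVP, but a mean of 0.018 on the log2 scale as deposited. No enzyme clone passed the threshold in the fit of the mean. Tests were run on 1030 clones with limma, with Benjamini-Hochberg adjustment and a threshold of 0.05. With the swap arrays turned 0 of the 12 enzyme clones passed, against 0.0971% of all clones. Before adjustment (limma p under 0.05), 1 enzyme clone, Taldo, lay on the high side and 0 on the low side, beside 4.66% and 2.23% of all clones. With the swap arrays as deposited 0 of 12 passed as well, against 0.777% of all clones. Before adjustment, 1 enzyme clone lay on the high side, Eno (all clones 9.32%), and 1 on the low side, Glyp (all clones 4.76%). A second limma fit, with NaVP and dye orientation as 2 coefficients, called 1 of 12 with the swap arrays turned, again Taldo (all clones 3.11%), and 0 of 12 with them as deposited (all clones 5.73%).

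Over the 10 genes, with clones of a gene averaged, the median log ratio was 0.13 with the swap arrays turned, beside -0.0055 over all 524 tested genes. It was 0.028 with the swap arrays as deposited, beside 0.041 over all genes. In either reading 7 of the 10 enzymes had a mean above 0, where 48.5% of all genes did when turned and 58.4% as deposited. They were not the same 7: Hex-A, Pgk and Eno lay below 0 turned, and Ald1, Glyp and Treh as deposited. The medians rest partly on single arrays. Without array 1 the turned median was 0.056. The median as deposited was -0.048 without array 1, 0.062 without array 2, 0.086 without array 3 and 0.14 without array 4. Array by array and as deposited, 8 of 10 enzymes lay above 0 on array 1 (median 0.24), 5 of 6 on array 2 (0.11), 6 of 10 on array 3 (0.049) and 3 of 10 on array 4 (-0.15). All genes measured on an array had 52.6% to 57.6% above 0. The enzymes thus sat higher on the arrays with NaVP in Cy5 than on array 4, and array 3 lay between.

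**Figure D1:**
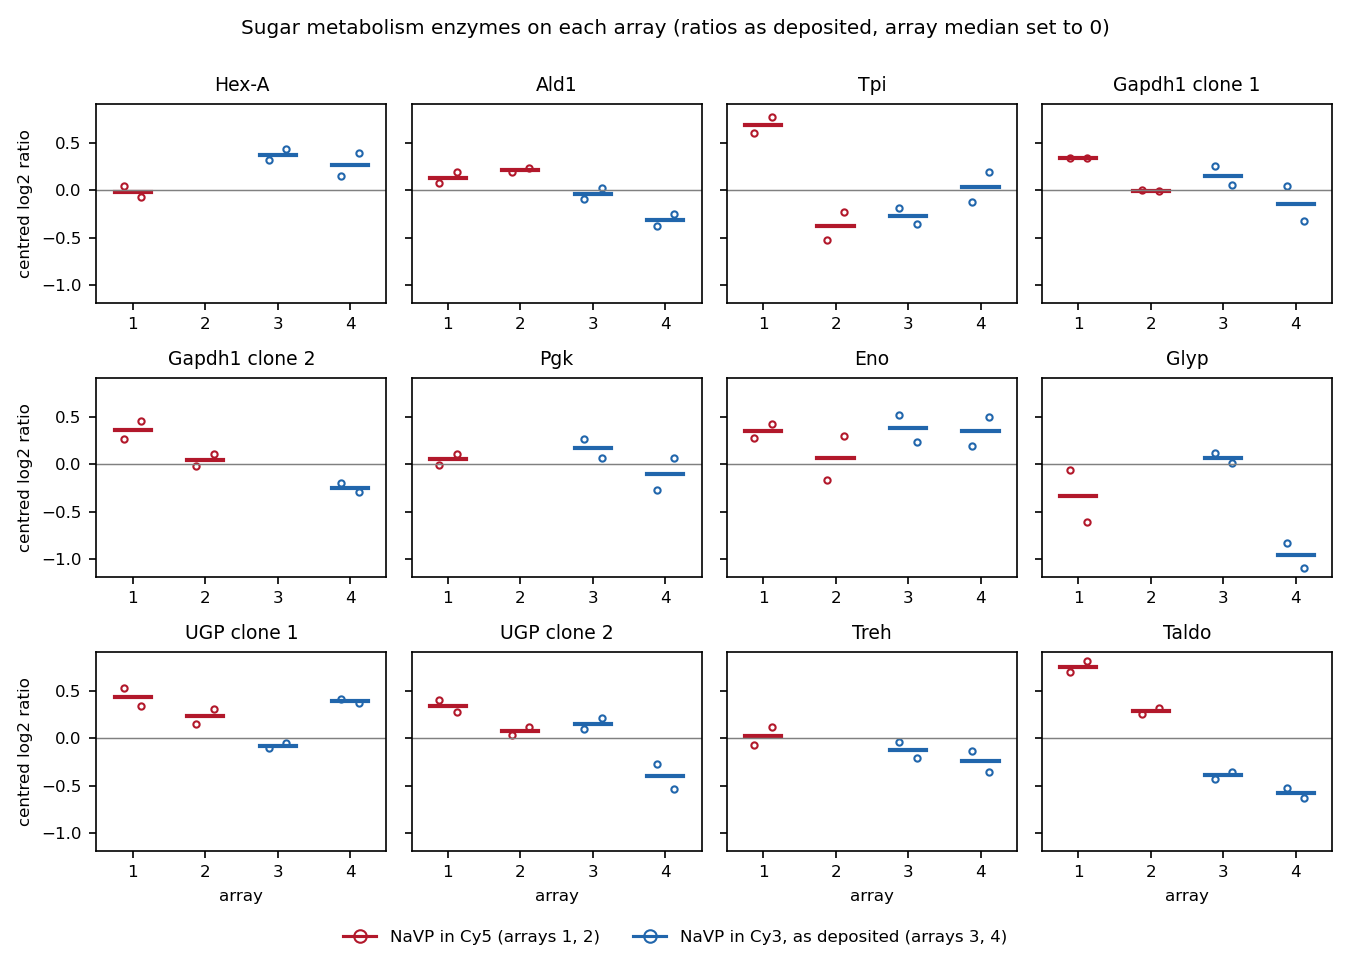
Centred log2 ratio (vertical axis) of each of the 12 measured enzyme clones on arrays 1 to 4, as deposited; circles are the 2 spots of the clone, bars their mean, red for NaVP in Cy5 and blue for NaVP in Cy3. Taldo lies above 0 on arrays 1 and 2 (0.75 and 0.29) and below 0 on arrays 3 and 4 (-0.39 and -0.57), Eno lies above 0 on all 4, and Hex-A, Pgk, Glyp and Treh have no value on array 2.

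Hex-A (NCBI gene 45875) encodes a hexokinase, which phosphorylates glucose at the entry to glycolysis. As deposited it had centred log2 ratios of -0.016, 0.37 and 0.27 on arrays 1, 3 and 4. It was at the array's median on array 1 and above it on the swap arrays, at percentiles 91.6 and 81.8 of their clones. Its mean was -0.22 ± 0.18 with the swap arrays turned (SD, n = 3), the lowest of the 10 enzymes in that reading, and lay below 0 on all 3 arrays (limma adjusted p = 0.749). As deposited it was 0.21 ± 0.20 (SD, n = 3; limma adjusted p = 0.553). The direction thus turned with the reading, and the Cy5 orientation rests on array 1 alone.

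Ald1 (NCBI gene 43183) encodes fructose-bisphosphate aldolase, which cuts the sugar bisphosphate into triose phosphates. The measured clone had ratios of 0.13, 0.21, -0.036 and -0.31 on arrays 1 to 4, as deposited. When turned, all 4 values were above 0, at a mean of 0.17 ± 0.12 (SD, n = 4), a 1.13-fold difference that did not pass (limma adjusted p = 0.749). As deposited the mean was -0.0012 ± 0.23 (SD, n = 4). Tpi (NCBI gene 43582) encodes triose phosphate isomerase, which interconverts those triose phosphates, and it was the least repeatable of the glycolytic genes. It had 0.69 on array 1, at percentile 96.5 of that array, but -0.38 on array 2, with NaVP in the same dye, and -0.27 and 0.037 on arrays 3 and 4. The spread between the arrays was larger than the mean in either reading, 0.14 ± 0.45 turned and 0.017 ± 0.48 as deposited (SD, n = 4).

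Gapdh1 (NCBI gene 35728), for glyceraldehyde-3-phosphate dehydrogenase, which makes NADH, was measured by 2 clones. The first had 0.34, -0.0050, 0.15 and -0.14 on arrays 1 to 4, and the second 0.36, 0.044 and -0.25 on arrays 1, 2 and 4. On the arrays they share, the clones differed by at most 0.11 on the log2 scale. Gapdh1 has a close paralogue, Gapdh2, not named in the probe annotation, and a cDNA clone of 1 may bind RNA of the other, so the values are uncertain between them. Means with the swap arrays turned were 0.081 ± 0.21 (SD, n = 4) and 0.22 ± 0.16 (SD, n = 3), with limma adjusted p = 0.927 and 0.749. As deposited they were 0.085 ± 0.21 (SD, n = 4) and 0.052 ± 0.30 (SD, n = 3).

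Pgk (NCBI gene 33461) encodes phosphoglycerate kinase, an ATP-forming step. It stayed closest to the array median of all the enzymes, at 0.050, 0.17 and -0.10 on arrays 1, 3 and 4. Its mean was -0.0047 ± 0.14 turned and 0.038 ± 0.14 as deposited (SD, n = 3 for each). The 95% limma interval of -0.34 to 0.33 in the turned reading does not exclude a change of about the size seen for Ald1.

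Eno (NCBI gene 33351), encoding enolase, which forms phosphoenolpyruvate, was the 1 enzyme above the median on each array as deposited. It had 0.35, 0.065, 0.38 and 0.35 on arrays 1 to 4, that is at percentiles 82.2, 55.1, 92.1 and 88.2 of each array's clones. Its mean as deposited was 0.28 ± 0.15 (SD, n = 4), a 1.22-fold difference, with a 95% limma interval of 0.021 to 0.55 that misses the threshold after adjustment (limma adjusted p = 0.322). Without centring it passed (limma adjusted p = 9.5e-04), as did 72.3% of all clones, and over the 12 alternative settings its limma adjusted p ran up to 0.726. When turned, the values cancelled to -0.078 ± 0.35 (SD, n = 4). Of the 7 enzyme clones on 4 arrays, Eno was the 1 with a single sign as deposited, and Ald1 and Taldo were the 2 with a single sign when turned. The shares over all 453 clones on 4 arrays were 26.3% as deposited and 17.4% turned.

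Glyp (NCBI gene 33386), for glycogen phosphorylase, which releases glucose 1-phosphate from glycogen, was measured on 3 arrays. As deposited it had -0.34, 0.065 and -0.96 on arrays 1, 3 and 4. The value on array 4 lay at percentile 3.31 of that array, while the value on array 3, of the same dye orientation, lay near its median. The paired spots on array 1 differed by 0.552, the largest gap of any enzyme. Its mean was 0.19 ± 0.68 turned and -0.41 ± 0.52 as deposited (SD, n = 3 for each), and neither passed (limma adjusted p = 0.876 and 0.351). Without array 4 the mean was -0.20 in the turned reading and -0.14 as deposited, so array 4 sets the size and, when turned, the direction.

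UGP (NCBI gene 39065) encodes UTP-glucose-1-phosphate uridylyltransferase, which makes UDP-glucose for glycogen and trehalose synthesis, and it was measured on all 4 arrays by 2 clones. The first had 0.43, 0.23, -0.082 and 0.39 on arrays 1 to 4, and the second 0.34, 0.075, 0.15 and -0.40. They lay within 0.23 of each other on arrays 1 to 3 but 0.79 apart on array 4, where the paired spots of each clone differed by 0.037 and 0.264. The clones were both above 0 on arrays 1 and 2. Their means with the swap arrays turned were 0.089 ± 0.35 and 0.17 ± 0.25, and as deposited 0.24 ± 0.23 and 0.041 ± 0.31 (SD, n = 4 for each), with limma adjusted p from 0.403 to 0.931.

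Treh (NCBI gene 45368), encoding trehalase, had 0.022, -0.12 and -0.24 on arrays 1, 3 and 4, as deposited. Its mean was 0.13 ± 0.11 with the swap arrays turned, above 0 on all 3 arrays, and -0.12 ± 0.13 as deposited (SD, n = 3 for each). Neither passed (limma adjusted p = 0.874 and 0.747). Of the 5 enzyme clones on 3 arrays, Hex-A, Treh and the second clone of Gapdh1 had a single sign when turned (28.1% of the 577 clones on 3 arrays) and 0 as deposited (34% of them).

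**Figure D2:**
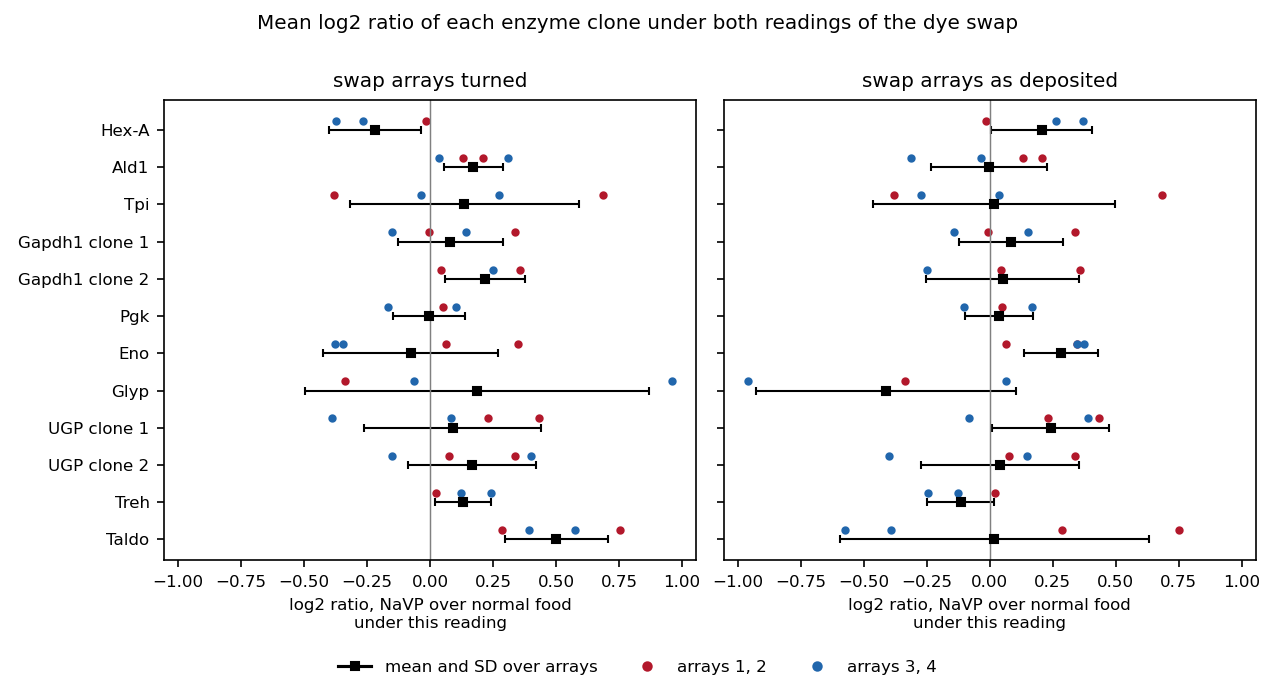
Mean log2 ratio of NaVP over normal food for each enzyme clone (black squares, SD bars over 3 or 4 arrays)), turned on the left and as deposited on the right; small circles are single arrays, red for arrays 1 and 2 and blue for arrays 3 and 4. With the swap arrays turned, Taldo lies farthest from 0, at 0.50 ± 0.21, and as deposited its arrays separate by dye, at 0.018 ± 0.61.

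Taldo had centred log2 ratios of 0.75, 0.29, -0.39 and -0.57 on arrays 1 to 4, as deposited. These lie at percentiles 97.7, 78.9, 20.0 and 8.11 of each array's clones, above the median in 1 dye orientation and below it in the other without overlap. Of the 453 clones on 4 arrays, 17.4% were split by dye orientation in this way, in either direction. Paired spots of Taldo differed by at most 0.121 on any array, less than the distance of each value from 0. Turned, all 4 arrays were above 0, at a mean of 0.50 ± 0.21 (SD, n = 4) and with a 95% limma interval of 0.21 to 0.79. The clone did not pass over all clones in the fit of the mean (limma adjusted p = 0.328, unadjusted p = 0.00311). An exact sign-flip permutation test of its 4 values gave p = 0.125 (two-sided), the smallest that 4 arrays allow. With dye orientation as a second coefficient the estimate was the same, 0.50, and it passed (limma adjusted p = 0.00767). That p rests mostly on a spread pooled over clones, with 76.4 prior degrees of freedom. It was the 1 alternative of 12 in which Taldo passed in this reading; over them the limma adjusted p ran from 0.00767 to 0.99972. Leaving out any 1 array kept the mean between 0.42 and 0.57. As deposited, the mean was 0.018 ± 0.61 (SD, n = 4; limma adjusted p = 0.98).

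The other measured enzyme of the same pathway was CG8036, which encodes a transketolase, the partner of transaldolase in the non-oxidative branch. Of 7 listed pentose phosphate genes, 3 had a clone and these 2 had a value on at least 3 arrays. CG8036 had 0.84, 0.68, -0.19 and -0.17 on arrays 1 to 4, as deposited, so its groups of arrays separated by dye as those of Taldo did. Such a split, in either direction, was seen in 17.4% of the 453 clones on 4 arrays. Turned, CG8036 was above 0 on all 4, at 0.47 ± 0.34 (SD, n = 4), a 1.38-fold difference (limma adjusted p = 0.587 in the fit of the mean). With the dye coefficient it passed as higher (limma adjusted p = 0.0129), a p that rests mostly on the same pooled spread as for Taldo. It was the 1 alternative of 12 in which CG8036 passed in this reading, and over them its limma adjusted p ran up to 0.99972. With the dye coefficient both pentose phosphate enzymes were thus called higher with the swap arrays turned, where 2.43% of all clones were. The list was chosen with earlier results of these data known, so this contrast is not independent of the choice. As deposited, neither passed with the dye coefficient (limma adjusted p = 0.952 for Taldo and 0.130 for CG8036). The mean of CG8036 in that reading was 0.29 ± 0.54 (SD, n = 4), against 0.018 for Taldo. The 2 differed in balance: CG8036 was larger on the arrays with NaVP in Cy5, and the turned values of Taldo were 0.39 and 0.57 on arrays 3 and 4, against 0.19 and 0.17 for CG8036.

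**Figure D3:**
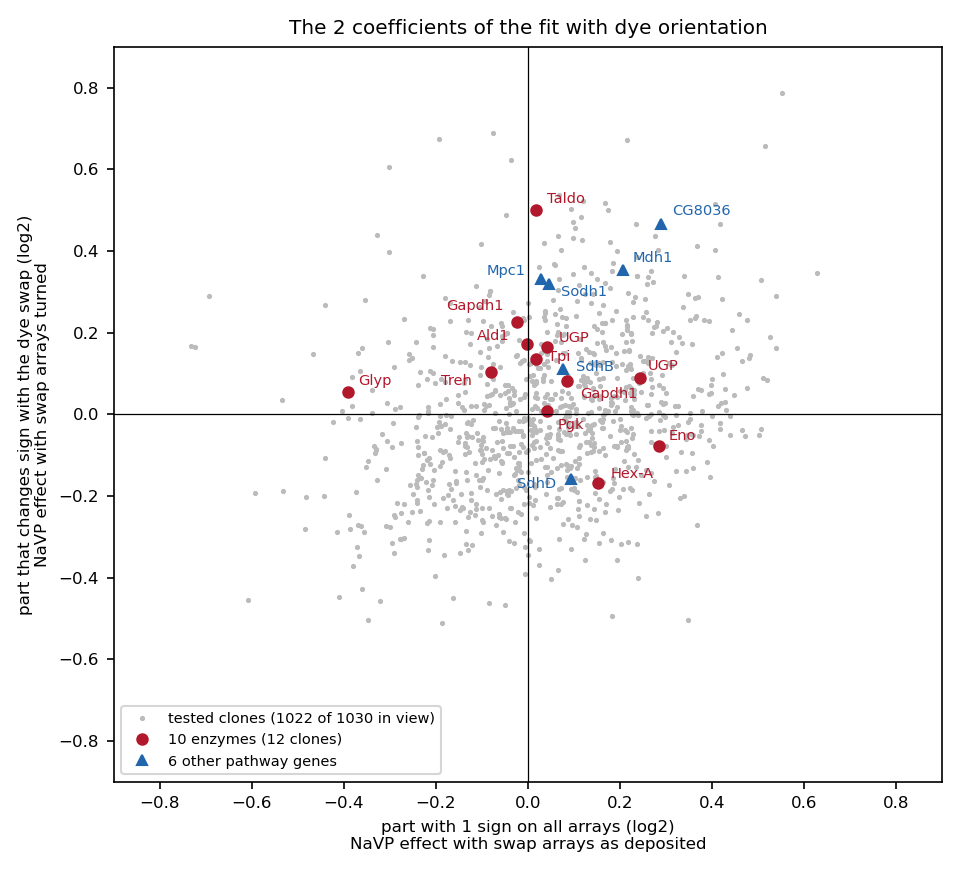
Coefficients of the limma fit with dye orientation for the tested clones (grey), the 12 enzyme clones (red circles) and 6 other pathway genes (blue triangles), both axes in log2 units; the vertical axis is the part that changes sign with the dye swap and the horizontal axis the part that does not. Taldo and CG8036 are the highest of the marked genes on the vertical axis, at 0.50 and 0.47. CG8036 and Eno lie farthest to the right of 0, at 0.29 and 0.28, and Glyp farthest to the left, at -0.39.

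Other genes of sugar metabolism were taken from 6 lists of 87 genes: glycolysis and gluconeogenesis, glycogen, trehalose and sugar transport, pentose phosphate, dietary sugar and polyols, and the TCA cycle with pyruvate entry. Of these 87 genes, 50 had a clone, 25 a value on any array and 16 a value on at least 3, the 10 enzymes and 6 others. In the fit of the mean 0 of the 18 clones of these 16 genes passed in either reading (all clones 0.0971% turned and 0.777% as deposited). With the dye coefficient 2 passed with the swap arrays turned, both higher (Taldo and CG8036), and 0 as deposited. The shares of all clones called in that fit were 3.11% turned and 5.73% as deposited. The median over the 16 genes was 0.14 turned and 0.057 as deposited, with 12 of 16 above 0 in each. Over all 524 tested genes the medians were -0.0055 turned and 0.041 as deposited, with 48.5% and 58.4% above 0. At an unadjusted limma p under 0.05, 1 clone lay on the high side and 1 on the low side as deposited, beside 9.32% and 4.76% of all clones. When turned, 4 clones lay on the high side and 0 on the low side, beside 4.66% and 2.23% of all clones.

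Those 4 were Taldo, CG8036, Sodh1 and Mdh1. Sodh1, a sorbitol dehydrogenase gene of the polyol pathway, had 0.65, 0.079, -0.26 and -0.29 on arrays 1 to 4, as deposited. Turned, its mean was 0.32 ± 0.24 (SD, n = 4; limma adjusted p = 0.646), and 0.134 with the dye coefficient was the smallest adjusted p it reached in that reading. Mdh1, for the cytosolic malate dehydrogenase, had 0.37, 0.75, -0.21 and -0.083 and a turned mean of 0.35 ± 0.29 (SD, n = 4; limma adjusted p = 0.646, and 0.0843 with the dye coefficient). These 4 genes were picked by their turned means, so a single turned sign is partly built into the choice. Of all 453 clones on 4 arrays, 17.4% had a single turned sign in either direction. The 4 picked genes were above 0 on arrays 1 and 2 and below 0 on arrays 3 and 4, as deposited. In that reading the means were 0.045 ± 0.44 for Sodh1 and 0.21 ± 0.44 for Mdh1 (SD, n = 4 for each).

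Mpc1, a subunit of the mitochondrial pyruvate carrier, had 0.36, -0.40 and -0.21 on arrays 1, 3 and 4, the same arrangement, with a turned mean of 0.32 ± 0.10 (SD, n = 3; limma adjusted p = 0.710). Of the succinate dehydrogenase subunits, SdhB had 0.076, 0.30, -0.30 and 0.23 on arrays 1 to 4, and so departed from that arrangement on array 4. SdhD had -0.066, 0.30 and 0.21 on arrays 1, 3 and 4, the opposite arrangement. SdhB had a turned mean of 0.11 ± 0.25 (SD, n = 4) and SdhD one of -0.19 ± 0.12 (SD, n = 3), with limma adjusted p = 0.876 and 0.796. As deposited, the means were -0.082 ± 0.39 for Mpc1, 0.077 ± 0.27 for SdhB and 0.15 ± 0.19 for SdhD (SD, same n).

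**Figure D4:**
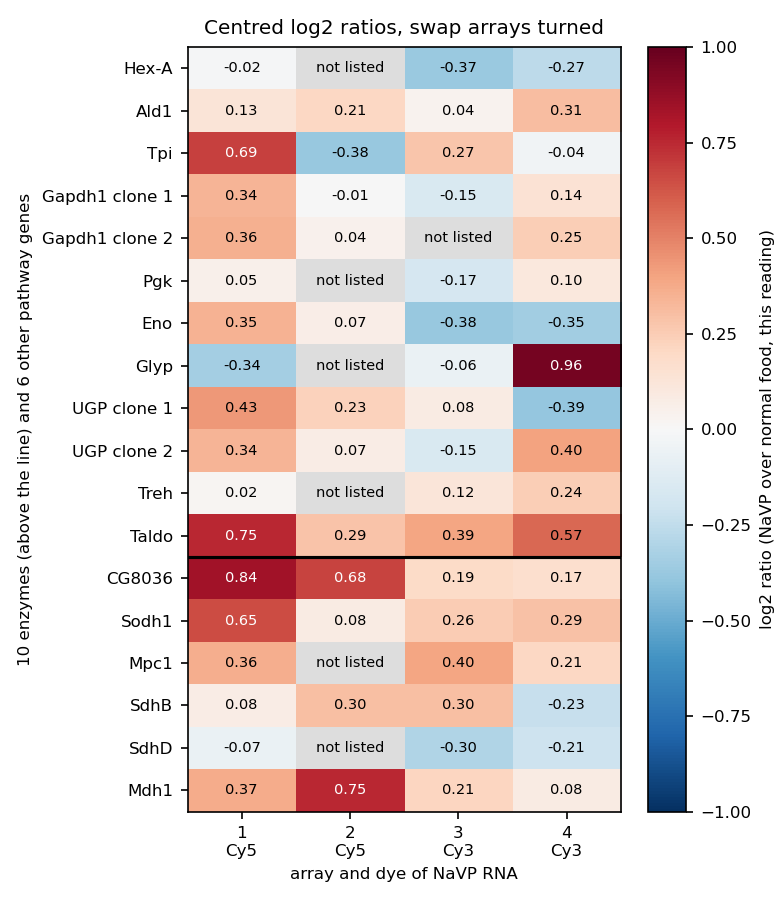
Centred log2 ratios of the 12 enzyme clones (above the line) and 6 other pathway genes (below it) on arrays 1 to 4 with the swap arrays turned, coloured from blue (lower in NaVP heads under this reading) to red (higher); grey marks a clone not listed on an array. Ald1, Taldo, CG8036, Sodh1 and Mdh1 are above 0 on all 4 arrays. Tpi, the first Gapdh1 clone, Pgk, Eno, Glyp, both UGP clones and SdhB change sign between arrays.

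Likeness of pattern was measured as the root mean square difference between centred log ratios over the 4 arrays, across the 219 other named genes with a value on all 4. The genes nearest to Taldo were Cyt-b5-r, a cytochrome b5-related gene, at 0.193, Sodh1 at 0.194 and CG2233 at 0.200, and CG8036 came 9th at 0.303. Cyt-b5-r had 0.57, 0.52, -0.21 and -0.42 on arrays 1 to 4, as deposited. The genes nearest to Eno were RhoGDI at 0.069, Pbp95 at 0.070 and CG2082 at 0.091. Among the 6 enzymes on all 4 arrays, with clones of a gene averaged, Gapdh1 and UGP were the closest pair, at 0.132. That closeness depends on the averaging, because the UGP clones had opposite values on array 4, 0.39 and -0.40. The next closest pair was Ald1 and Gapdh1, at 0.181. Eno and Taldo were the farthest apart, at 0.642.

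Markers of head cell types were set beside these values. Of 36 markers in 6 lists, 18 had a clone and 8 a value on at least 3 arrays, and 0 passed in either reading or either fit. Turned, the list medians were 0.075 for photoreceptor (3 genes), 0.12 for fat body (apolpp alone), 0.039 for muscle (Act88F and Mlc2), -0.035 for glia (Gs2 alone) and -0.19 for antenna (Obp19d alone). As deposited they were 0.32 for photoreceptor, -0.25 for fat body, 0.037 for muscle, -0.060 for glia and 0.15 for antenna. The turned list medians thus ran from -0.19 for antenna to 0.12 for fat body, and the neuron markers had no value. The turned means were 0.50 for Taldo and 0.47 for CG8036, and the part of cell types in these means was not tested. The photoreceptor median as deposited was about as large as the mean of Eno, and its part in that value was not tested. Its 3 markers differed: as deposited the means were 0.34 for trpl, 0.32 for Arr1 and 0.12 for inaD. Turned, they were -0.14, 0.15 and 0.075. Of the 2 apolpp clones, the first had a mean of -0.40 ± 0.13 as deposited (SD, n = 3), about the size of the mean of Glyp in that reading, and the second -0.095 ± 0.23 (SD, n = 4). Their part in the value of Glyp was not tested.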

How the data were processed

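The authors deposited 1 log ratio per spot and array, treated as log2 although the base is not stated, in 27648 spots on 4 arrays. Per the series' design text, slides were scanned at 10 micrometres and quantified in GenePix Pro 6.0. After ratio-based normalisation in Acuity 4.0, filters on saturation, flags, regression R2 (0.6 or more) and signal over noise (3 or more) were applied. The authors then tested clones in SAM 2.21.

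Adjacent spots were averaged to 13824 clones, and each array was centred on its median, which removes any change shared by most clones. Clones on at least 3 arrays (1030) were tested against 0 with limma 3.58.1 in R 4.3.3 (lmFit, eBayes, two-sided, intercept only), adjusted by Benjamini-Hochberg, once per reading. The prior degrees of freedom were 7.54 turned and 9.87 as deposited, so p-values draw on a pooled spread. Symbols were updated by NCBI gene ID to the reference of Release 6. Of 554 tested clones with 1 symbol, 546 matched; 51 clones on the array have several symbols and 6215 are unnamed here. The scripts were tested on simulated data. The enzymes and gene lists were chosen with earlier results of these data known. All 10 enzymes are named. Other genes are named from the lists where on at least 3 arrays, with the 3 nearest genes in pattern to the enzyme of largest absolute mean among those on all 4 arrays in each reading. Alternatives were no centring, centring within 48 print blocks, other array minimums, a dye coefficient, filters on duplicate spots, gene means and leaving out each array.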

Additional observations from a re-analysis of the deposited data

Results flagged for a closer look

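Of 22 sets of 4 values examined (11 clones on all 4 arrays, the enzymes and the other pathway genes, in both readings), 1 had an array far from the others by Dixon's test. Eno as deposited had 0.065 on array 2, against 0.35, 0.38 and 0.35 on arrays 1, 3 and 4, a gap of 0.904 of the whole range, above the critical value for 4 values. Chance flags about 1 such set in 20. Array 2 had values for the fewest spots, 4.78%, and without it the mean of Eno as deposited was 0.36. Its paired spots on that array differed by 0.456, the largest gap between spots of this clone.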

How the results depend on the processing

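The precision is limited by 4 arrays, of which array 2 lacks 4 enzymes, and by a log base, ratio direction and swap reading that no source states. Median half-widths of the 95% limma intervals of the enzyme clones were 0.34 turned and 0.31 as deposited. No paired analysis was possible because the arrays form a single group of ratios, each already pairing its own NaVP and normal food pools, and no groups share replicate numbers.

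As deposited, 8 clones of all passed, against 745 without centring, 19 with centring within print blocks, 24 for clones on 2 or more arrays, 1 for clones on all 4, 59 with the dye coefficient, and 4 to 31 with 1 array left out (4 without array 3, 31 without array 1). Turned, 1 passed, against 0 without centring, 2 within print blocks, 0 on 2 or more arrays, 0 on all 4 arrays, 32 with the dye coefficient, 5 over gene means, and 0 to 14 with 1 array left out (14 without array 1). Of the enzyme clones, 10 passed without centring as deposited and 1 with the dye coefficient turned, and 0 to 0 with 1 array left out. Without centring, the median over the enzymes was 0.73 as deposited and 0.35 turned, beside 0.72 and 0.23 over all clones. With 1 array left out it lay between -0.048 and 0.14 as deposited and between 0.056 and 0.16 turned.

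Means changed sign without centring for Ald1 (0.71), Glyp (0.19), Treh (0.48) and Mpc1 (0.52) as deposited, and for Eno (0.24) and Pgk (0.070) turned. Within print blocks they did so for Ald1 (0.16), Pgk (-0.019), Treh (0.015), Mpc1 (0.069) and Sodh1 (-0.024) as deposited, and for the first Gapdh1 clone (-0.0037) and Pgk (0.030) turned. With the dye coefficient they did so for the second Gapdh1 clone (-0.024) and Mpc1 (0.029) as deposited and Pgk (0.0089) turned. With 1 array left out, means as deposited ranged from -0.071 to 0.10 for Ald1, -0.10 to 0.20 for the second Gapdh1 clone, -0.026 to 0.11 for Pgk, -0.23 to 0.22 for Taldo, -0.21 to 0.15 for Tpi, -0.059 to 0.19 for the second UGP clone, -0.30 to 0.076 for Mpc1 and -0.16 to 0.16 for Sodh1. Turned, they ranged from -0.22 to 0.022 for Eno, -0.0048 to 0.16 for the first Gapdh1 clone, -0.20 to 0.45 for Glyp, -0.058 to 0.076 for Pgk, -0.048 to 0.31 for Tpi and -0.025 to 0.25 for the first UGP clone. The cause was not tested.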
